A study of Mus musculus with 6 samples.

Results

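Amino acid transporters were examined in RNA-seq of C2C12 cells, a line of mouse myoblasts that can fuse into muscle fibers. The set held 47 of the 22375 rows of the deposited FPKM table. It comprised the 42 gene symbols of the solute carrier families Slc1, Slc3, Slc7, Slc36, Slc38 and Slc43 that were present, after 1 symbol of a transcript on the opposite strand (Slc7a6os) had been left out, and 5 genes added by name (Slc6a6, Slc6a9, Slc6a15, Slc16a10 and Slc66a1). The CON group consisted of 3 libraries from unstretched myoblasts. The 4H group consisted of 3 libraries from myoblasts that had been loaded cyclically for 4 h at an elongation of 15% on elastic plates coated with poly-lysine. Both groups shared the parental C2C12 cells and a medium with fetal bovine serum, and no genetic change or agent is named for either. Whether the CON cells were kept on the same elastic plates for the same time is not given in the sources used here.

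Amino acids cross membranes through carriers that differ in the charge of their substrate. Neutral amino acids such as leucine, glutamine, serine and glycine enter through exchangers and sodium-coupled carriers, cationic ones such as arginine and lysine through the CAT carriers, and acidic ones such as glutamate and aspartate through sodium-coupled EAAT carriers. Several Slc7 exchangers are light chains that reach the cell surface only when bound to a heavy chain of the Slc3 family. In myoblasts these carriers feed protein synthesis, glutathione synthesis and the lysosomal sensing of amino acids, and many of them are known targets of ATF4, the transcription factor of the amino acid response.

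The values were FPKM, fragments counted relative to transcript length and to the mapped fragments of the library, so levels of different genes could be set side by side. Of the 47 carriers, 28 reached 0.5 FPKM on average across all libraries and were tested (59.6%, compared with 51.8% of all rows). Of the 19 others, 7 were at 0 in every library (Slc7a9, Slc7a10, Slc7a12, Slc7a13, Slc36a2, Slc38a5 and Slc38a11). The remaining 12 (Slc1a1, Slc1a2, Slc1a6, Slc3a1, Slc7a7, Slc7a8, Slc7a14, Slc7a15, Slc36a3, Slc38a3, Slc38a4 and Slc38a8) never exceeded 0.352 FPKM. Among the 19 below the filter were Slc3a1 and Slc7a9, the subunits of the cystine carrier of kidney and gut.

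FPKM summed to 395790 to 397260 per CON library and 385146 to 387516 per 4H library. Fragment numbers cannot be read from FPKM, so depth is unknown. A check on very low genes kept only ratios between libraries close to 1. It therefore could not have shown a larger difference in depth. Pearson's r of log2 values across genes was 0.992 to 0.993 within groups and 0.967 to 0.970 between groups, and no 2 columns were identical. All 7 myoblast markers checked (Myod1, Myf5, Cdh15, Des, Chrna1, Itga7 and Msc) passed the filter, with summed levels of 175.6 to 179.6 FPKM for CON and 263.2 to 276.9 FPKM for 4H. None of 3 epithelial, 4 endothelial and 3 adipocyte markers passed the filter, with Epcam, Cfd and Plin1 at 0 and with sums of at most 0.148, 0.122 and 0 FPKM in a CON library and 0.468, 0.387 and 0.137 FPKM in a 4H library. Of 4 leukocyte markers, Cd68 passed and Ptprc was at 0, with sums of 6.82 to 8.55 FPKM for CON and 15.1 to 17.6 FPKM for 4H. Of 4 neuronal markers, Tubb3 passed and Rbfox3 was at 0, with sums of 15.2 to 18.1 FPKM and 34.0 to 38.9 FPKM. The part of these differences in the results on carriers was not tested. In a bulk sample, fewer cells of a kind and less RNA per cell cannot be told apart. The labels call the libraries replicate biosamples without saying that they came from separate cultures, so p-values measure the spread between these libraries only.

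Because several carriers are known ATF4 targets, the promoters were searched for TGATGNAA, the core of the amino acid response element that ATF4 binds with a C/EBP factor. The promoter was taken as 250 bases before to 50 bases after the start in the RefSeq table (GRCm38.p6, the assembly of mm10), and both strands were read. A promoter was given for 34 of the 47 carriers, and not for Slc7a5, Slc1a5, Slc38a1, Slc7a3 and Slc6a6 among others. The core was found in 3 of the 34 (8.82%), and in 1219 of all 27025 genes with a promoter (4.51%). The stretches of 200 bases that hold it are shown here, from 170 bases before the start to the 30th base of the transcript, 5′ to 3′ along the gene, with each core in capitals as it reads on the strand of the gene, so that a core on the opposite strand appears as its reverse complement.
Slc7a11 promoter, chr3:50443584-50443783, minus strand: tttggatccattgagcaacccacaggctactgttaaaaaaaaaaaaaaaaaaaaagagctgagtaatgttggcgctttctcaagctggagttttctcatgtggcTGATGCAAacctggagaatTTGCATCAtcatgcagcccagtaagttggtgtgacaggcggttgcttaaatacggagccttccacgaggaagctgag
Slc1a4 promoter, chr11:20332684-20332883, minus strand: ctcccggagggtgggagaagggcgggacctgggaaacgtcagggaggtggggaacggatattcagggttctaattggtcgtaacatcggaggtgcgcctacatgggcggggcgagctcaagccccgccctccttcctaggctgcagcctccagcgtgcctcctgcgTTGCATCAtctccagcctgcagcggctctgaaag
Slc7a7 promoter, chr14:54417915-54418114, minus strand: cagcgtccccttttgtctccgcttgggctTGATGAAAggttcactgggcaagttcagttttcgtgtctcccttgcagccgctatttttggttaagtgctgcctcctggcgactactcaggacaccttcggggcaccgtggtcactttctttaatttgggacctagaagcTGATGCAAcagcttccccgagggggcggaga
Positions are those of the first base of a core read along the gene. In Slc7a11 the core stood 66 bases before the start on the strand of the gene and again 47 bases before the start on the opposite strand, both times as TGATGCAA. In Slc1a4 it lay on the opposite strand from 4 bases before the start, across the start. In Slc7a7 it occurred as TGATGAAA 141 bases before the start and as TGATGCAA from 1 base before it. The core of the antioxidant response element, TGACNNNGC, was present in 6 of the 34 carriers (17.6%, Slc43a1, Slc6a9, Slc7a1, Slc7a6, Slc36a1 and Slc38a2) and in 14.0% of all genes. The AP-1 site TGACTCA, or TGAGTCA on the other strand, was present in 2 (5.88%, Slc7a1 and Slc3a1) and in 5.95% of all genes. A match of these letters is a description of the sequence and does not show binding.

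After 4 h of stretch, the tested carriers of acidic amino acids fell to between 18.1% and 31.6% of their CON levels. Of 13 tested carriers of neutral amino acids, 6 fell, to between 26.9% and 70.5% of their CON levels, while Slc38a2, the most abundant of them, was not called. Of 4 cationic carriers, 2 fell, the abundant Slc7a1 to 81.8% and the rare Slc7a3 to 38.2% of the CON level. Of the 28 tested carriers, 13 were lower and 2 were higher in stretched cells with adjusted p values up to 0.05 (limma on log2(FPKM + 0.5), Benjamini-Hochberg over all 11593 genes tested), and 13 were not called. Among all genes tested, 24.1% were lower and 22.6% were higher by the same rule. When a log2 fold change of 1 or more in size was required in addition (differential expression), 7 carriers were lower (Slc6a9, Slc7a11, Slc7a5, Slc1a3, Slc1a7, Slc38a7 and Slc1a5) and 0 were higher, where 1.28% of all genes were lower and 2.61% were higher. Among these 7, Slc1a5 lost the fold threshold at a pseudocount of 1 (-0.998), after rescaling to TPM (-0.995) and without CON replicate 1 (-0.985), and Slc1a7 lost it at a pseudocount of 1 (-0.87). All 4H libraries lay below all CON libraries in 13 carriers and above them in 4, compared with 29.2% and 27.5% of all genes. The median log2 fold change of the tested carriers was -0.26 (range -1.86 to 0.62) beside -0.01 over all genes tested. These counts describe the carriers that passed the filter, which Slc1a7 and Slc6a15 passed through their levels in the CON group and Slc7a4 through its level in the 4H group.

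**Figure D1:**
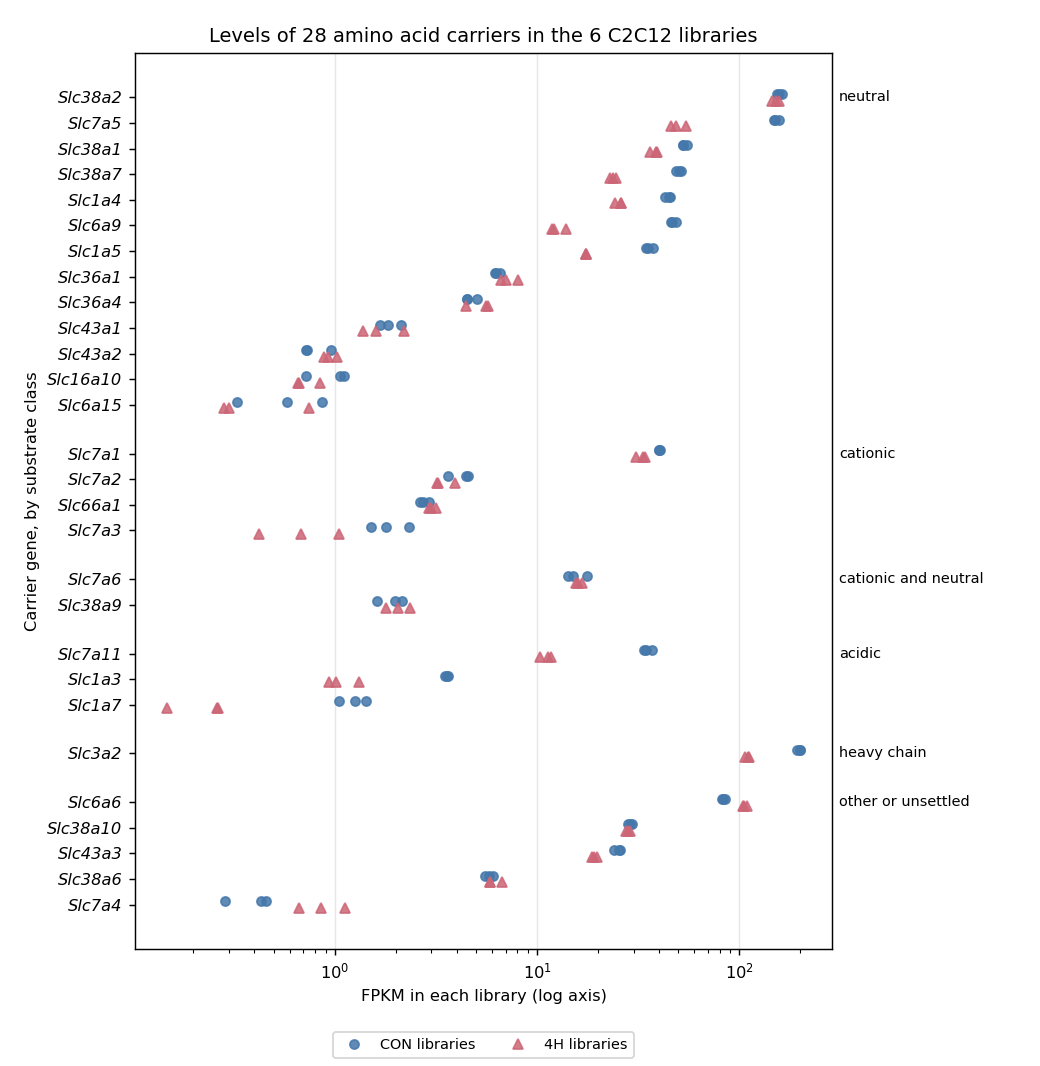
FPKM of the 28 tested carriers (log axis) in each CON library (circles) and each 4H library (triangles), grouped by substrate class. All triangles lie left of all circles for Slc7a11, Slc1a3, Slc1a7, Slc3a2, Slc7a5 and Slc6a9, whereas they overlap for Slc38a2 and Slc7a6.

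Of 7 acidic carriers, 3 passed the filter, Slc1a7 through its CON level alone, and Slc7a11, Slc1a3 and Slc1a7 were lower without overlap, beside 24.1% lower and 29.2% lower without overlap among all genes tested. Slc7a11 encodes xCT, the exchanger that brings in cystine for glutathione synthesis and releases glutamate, and lies on chromosome 3 at 49892526 to 50443614, minus strand (mm10). Its level was 36.9, 34.7 and 33.9 FPKM in the CON libraries and 11.3, 11.7 and 10.3 FPKM in the 4H libraries, and every 4H library lay well below the CON range. The means were 35.2 ± 1.60 and 11.1 ± 0.698 FPKM (SD, n = 3 each), and the log2 fold change was -1.62 (SE 0.06, adjusted p = 4.03e-07, limma with Benjamini-Hochberg adjustment). Of the carriers whose promoter holds the core, Slc7a11 and Slc1a4 were lower. Slc7a7, with 2 cores, was below the filter and higher in all 4H libraries. Of those searched without finding a core, Slc6a9 and Slc7a1 were also lower, and Slc38a2 and Slc7a6 were not called. Slc7a5 and Slc1a5, both lower, had no promoter to search. A link between the core and the change was not tested.

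Slc1a3 encodes GLAST, a sodium-coupled importer of glutamate and aspartate (chromosome 15, 8634124 to 8710764, minus strand). It stood at 3.63, 3.49 and 3.58 FPKM in the CON libraries against 1.32, 0.939 and 1.01 FPKM in the 4H libraries. The 4H level was 30.6% of the CON level (log2 fold change -1.36, SE 0.11, adjusted p = 3.44e-05, limma). Slc1a7 encodes EAAT5, a glutamate carrier best known from the retina (chromosome 4, 107968332 to 108013532, plus strand). It was low throughout, with 1.43, 1.05 and 1.26 FPKM in the CON libraries and 0.261, 0.148 and 0.265 FPKM in the 4H libraries. Its 4H level was 18.1% of that in the CON group, and its log2 fold change of -1.27 (SE 0.15, adjusted p = 0.000246, limma) understates that ratio because of the pseudocount. Of the other 4 acidic carriers, Slc1a1, Slc1a2 and Slc1a6 were near 0 and Slc7a13 was at 0. The acidic carriers together summed to 40.2 ± 1.74 FPKM for CON and 12.6 ± 0.700 FPKM for 4H, with Slc7a11 making up most of both sums.

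Among 21 carriers of neutral amino acids, 13 were tested, 6 were lower, 0 were higher and 7 were not called, beside 24.1% lower and 22.6% higher among all genes tested. Their median log2 fold change was -0.26, and -0.43 without CON replicate 1. Slc6a9 encodes GLYT1, the sodium- and chloride-coupled glycine carrier (chromosome 4, 117834506 to 117875198, plus strand). It had the largest log2 fold change of the 28 carriers at the pseudocount of 0.5, although the ratio of means was more extreme for Slc1a7, which also came first at a pseudocount of 0.1 (-2.06 beside -1.89 for Slc6a9). Its levels were 45.9, 46.5 and 48.7 FPKM in the CON libraries and 12.2, 13.9 and 11.9 FPKM in the 4H libraries, with no overlap. The mean fell from 47.0 ± 1.48 to 12.6 ± 1.09 FPKM (log2 fold change -1.86, SE 0.06, adjusted p = 2.81e-07, limma). Its exons overlap those of B4galt2, Ccdc24 and Gm17114 on the opposite strand, and the libraries were strand-specific while the strand setting of the counting is not given in the sources used here.

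Slc7a5 encodes LAT1, the exchanger that imports leucine and other large neutral amino acids (chromosome 8, 121881150 to 121907694, minus strand). Levels of 149.9, 148.2 and 156.8 FPKM in the CON libraries stood against 48.6, 54.5 and 45.8 FPKM in the 4H libraries. The log2 fold change was -1.61 (SE 0.06, adjusted p = 4.9e-07, limma), which left 32.7% of the CON level. Slc38a7, the lysosomal exporter of glutamine and asparagine (chromosome 8, 95835920 to 95853539, minus strand), was at 48.6, 51.6 and 50.3 FPKM (CON) and at 23.8, 23.0 and 24.6 FPKM (4H), with a log2 fold change of -1.06 (SE 0.04, adjusted p = 6.45e-07, limma). Both genes were thus separated between the groups by far more than the spread within either group.

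The ASCT carriers exchange small neutral amino acids together with sodium. Slc1a5, or ASCT2, is a main entry route of glutamine (chromosome 7, 16781340 to 16798274, plus strand). It was at 37.5, 34.7 and 35.3 FPKM in the CON libraries versus 17.4, 17.5 and 17.4 FPKM in the 4H libraries (log2 fold change -1.02, SE 0.04, adjusted p = 8.53e-07, limma). Slc1a4, or ASCT1, carries alanine, serine and cysteine (chromosome 11, 20302180 to 20332713, minus strand) and has a response element core next to its start. Its levels of 43.1, 45.0 and 45.4 FPKM in the CON libraries and 26.0, 26.1 and 24.4 FPKM in the 4H libraries did not overlap (-0.79, SE 0.04, adjusted p = 2.81e-06, limma).

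The SNAT carriers Slc38a1 and Slc38a2 take up glutamine, alanine and serine with sodium and are the most abundant members of their family here. Slc38a1 was at 55.4, 52.9 and 52.8 FPKM in the CON libraries against 39.0, 38.5 and 36.0 FPKM in the 4H libraries (log2 fold change -0.50, SE 0.04, adjusted p = 3.61e-05, limma). Slc38a2, a carrier known to be induced when amino acids are scarce, was at 161.7, 153.8 and 156.8 FPKM (CON) and at 145.4, 156.6 and 152.2 FPKM (4H). The groups overlapped for Slc38a2, and its log2 fold change of -0.06 had a 95% interval of -0.14 to 0.03 (adjusted p = 0.232, limma).

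The other 6 tested carriers of neutral amino acids were not called. They were the aromatic amino acid carrier Slc16a10 (log2 fold change -0.26), the branched-chain amino acid and proline carrier Slc6a15 (-0.21), the large neutral amino acid carriers Slc43a1 (-0.11) and Slc43a2 (0.16), and the proton-coupled carriers Slc36a4 (0.15) and Slc36a1 (0.17). Only Slc36a1, which exports small amino acids from lysosomes, had no overlap between the groups, with 6.56, 6.29 and 6.18 FPKM in the CON libraries and 6.63, 8.06 and 7.01 FPKM in the 4H libraries. Its interval reached from -0.01 to 0.36 (adjusted p = 0.115, limma).

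All 4 carriers of cationic amino acids passed the filter, 2 of them were lower and 0 were higher, beside 24.1% lower and 22.6% higher among all genes tested. Their median log2 fold change was -0.27, beside -0.26 for the neutral carriers. The order of these medians depended on the setting, given here with the cationic value first. They were -0.27 and -0.65 at a filter of 1 FPKM, and -0.24 and -0.43 without CON replicate 1. At a filter of 5 FPKM they were -0.29, from 1 cationic gene, and -0.90. The order was the other way without a filter (-0.27 and -0.11), at a pseudocount of 1 (-0.26 and -0.19) and without CON replicate 2 (-0.32 and -0.21), among others. None of the 4 cationic carriers reached a log2 fold change of -1, although Slc7a3 lay just inside it. Slc7a1 encodes CAT-1, the general importer of arginine and lysine. It was at 40.2, 39.9 and 40.4 FPKM in the CON libraries versus 33.5, 34.2 and 30.8 FPKM in the 4H libraries, so the groups were apart but the 4H level was still 81.8% of the CON level (log2 fold change -0.29, SE 0.04, adjusted p = 0.00111, limma). Slc7a3, or CAT-3, was much rarer, with 2.33, 1.79 and 1.50 FPKM (CON) and 1.05, 0.421 and 0.684 FPKM (4H), with a log2 fold change of -0.98 (SE 0.21, adjusted p = 0.00574, limma). The spread among the libraries of each group was wide for Slc7a3, and its 95% interval ran from -1.47 to -0.50. Its side of the fold threshold depended on the setting, with a log2 fold change of -1.33 at a pseudocount of 0.1, -0.75 at a pseudocount of 1, -1.19 after rescaling to TPM and -1.10 after quantile normalization. It also reached -1 without CON replicate 2, without CON replicate 3 (-1.10) and without 4H replicate 1 (-1.17).

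The other cationic carriers did not pass the test. Slc7a2, or CAT-2, was at 4.57, 3.62 and 4.46 FPKM in the CON libraries against 3.23, 3.91 and 3.18 FPKM in the 4H libraries. Its groups overlapped, and its log2 fold change of -0.26 had an interval of -0.52 to 0.00 (adjusted p = 0.0970, limma). It was called lower without CON replicate 2 (-0.35, adjusted p = 0.0386) and without 4H replicate 2 (-0.34, adjusted p = 0.05, limma). Slc66a1, which releases arginine and lysine from lysosomes, was at 2.92, 2.72 and 2.65 FPKM (CON) and at 2.99, 2.94 and 3.17 FPKM (4H). All 4H libraries lay above all CON libraries for Slc66a1, with a log2 fold change of 0.11, an interval of -0.08 to 0.31 and an adjusted p of 0.299 (limma).

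Carriers that handle both cationic and neutral amino acids showed no called difference. Slc7a6, or y+LAT2, a light chain that exchanges arginine for glutamine and sodium, was at 17.6, 14.2 and 15.0 FPKM in the CON libraries versus 15.7, 16.6 and 15.9 FPKM in the 4H libraries. The interval of its log2 fold change of 0.05 was -0.13 to 0.22 (adjusted p = 0.658, limma). Slc38a9, the lysosomal arginine sensor upstream of mTORC1, was at 1.62, 2.16 and 1.98 FPKM (CON) and at 1.78, 2.36 and 2.05 FPKM (4H), with a log2 fold change of 0.08 and an interval of -0.22 to 0.38 (adjusted p = 0.632, limma). Slc7a9 was at 0. Slc7a7, or y+LAT1, stayed below the filter at 0.0520, 0.103 and 0.0773 FPKM in the CON libraries and 0.230, 0.352 and 0.299 FPKM in the 4H libraries. Fitted without a filter, Slc7a7 had a log2 fold change of 0.46 (adjusted p = 0.00344, limma), and its exons overlap those of Oxa1l on the opposite strand.

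**Figure D2:**
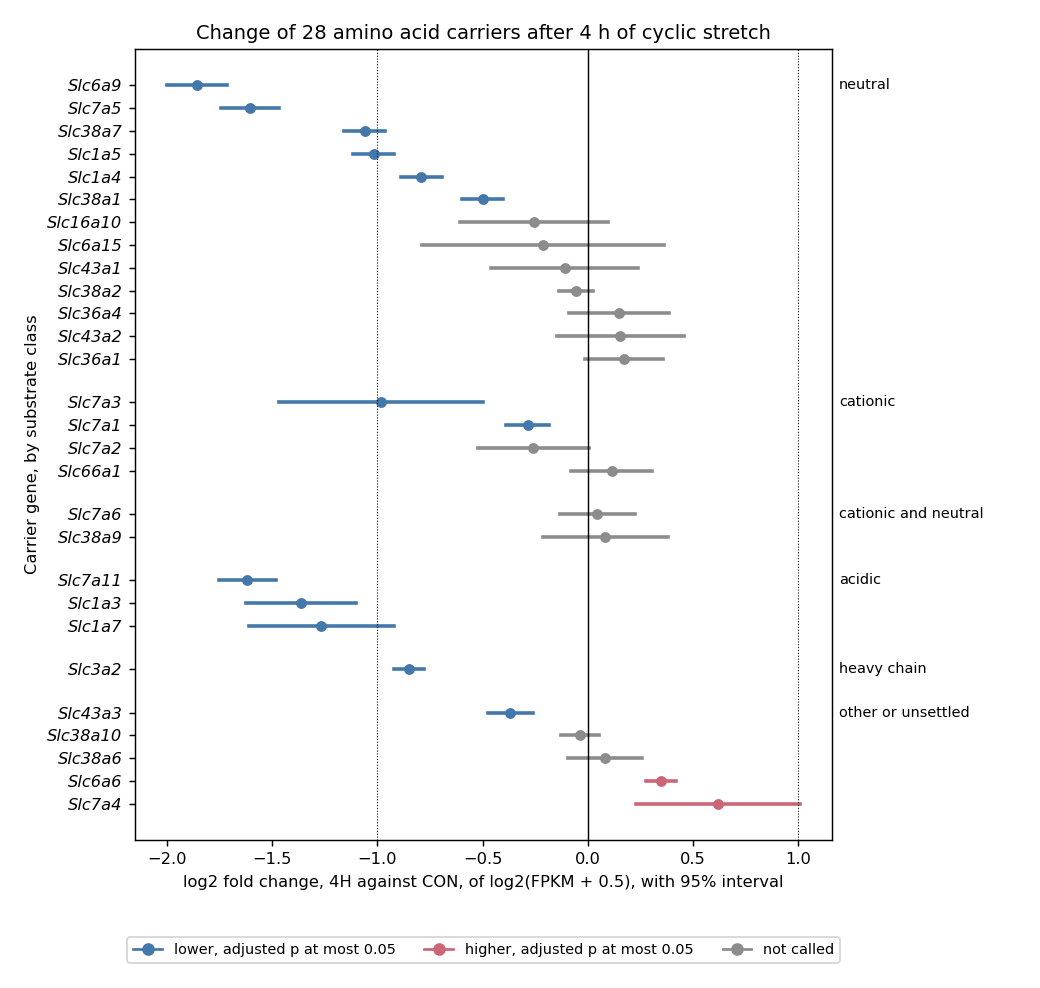
Log2 fold change of 4H against CON on log2(FPKM + 0.5) for the 28 tested carriers by substrate class, as points with 95% intervals from limma. Dotted lines mark a log2 fold change of -1 and 1, and the 3 acidic carriers lie left of -1 while the 4 cationic ones lie between -0.98 and 0.11.

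Single carriers were also compared in pairs, because the log2 ratio of 2 FPKM values within a library does not depend on the scale of that library. The 9 pairs were picked with earlier results known and do not stand for their classes. Beside cationic Slc7a1 (log2 fold change -0.29), neutral Slc38a2 stood at -0.06 and cationic Slc7a3 at -0.98. With 3 libraries against 3, an exact two-sided permutation test cannot go below p = 0.1, so none of the pairs could pass the threshold. The log2 ratio of acidic Slc7a11 to cationic Slc7a1 was -0.12, -0.20 and -0.25 in the CON libraries and -1.56, -1.55 and -1.58 in the 4H libraries, a change of -1.37. That of neutral Slc7a5 to Slc7a1 was 1.90, 1.89 and 1.96 in the CON libraries and 0.54, 0.67 and 0.57 in the 4H libraries. Both ratios were separated between the groups, with the smallest p the exact permutation test allows (p = 0.1, adjusted over the 9 pairs p = 0.1125). The ratio of Slc7a5 to Slc7a11 differed little, with a change of 0.05 on the log2 scale and overlapping groups (exact permutation p = 0.4, adjusted p = 0.4). Within the neutral class, the ratio of Slc38a1 to Slc38a2 changed by -0.45, that of Slc1a5 to Slc1a4 by -0.24, and that of Slc38a7 to Slc36a1, both lysosomal, by -1.26, each with groups that did not overlap and an exact permutation p of 0.1.

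As sums of FPKM, carriers of neutral amino acids went from 555.6 ± 7.06 in the CON group to 334.7 ± 10.4 in the 4H group, 60.2% of the CON level. The cationic carriers went from 49.0 ± 0.969 to 40.0 ± 1.90 FPKM, 81.7% of the CON level, and the acidic carriers were left with 31.4%. The carriers of both cationic and neutral amino acids stood at 104.7% of the CON level. All 47 genes together summed to 1003 ± 15.1 FPKM for CON and 675.6 ± 16.5 FPKM for 4H. Within this total, the acidic share went from 4.00% to 1.87% and the cationic share from 4.89% to 5.93%. Each sum is governed by its most abundant carriers and says nothing about transport activity.

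Slc3a2 encodes CD98hc, the heavy chain to which LAT1, xCT and y+LAT2 bind (chromosome 19, 8706882 to 8723369, minus strand). It was the most abundant carrier gene of the CON group at 200.2, 191.8 and 199.1 FPKM, and stood at 111.4, 110.0 and 106.2 FPKM in the 4H libraries. The groups were far apart, with a log2 fold change of -0.85 (SE 0.03, adjusted p = 4.42e-07, limma) and 55.4% of the CON level left. The other heavy chain, Slc3a1, was near 0. Of the 10 light chains among the carriers, 3 passed the filter, Slc7a5 and Slc7a11 were lower and Slc7a6 was not called, beside 24.1% lower among all genes tested. The 10 light chains summed to 204.5, 197.2 and 205.8 FPKM in the CON libraries and to 75.8, 83.2 and 72.3 FPKM in the 4H libraries.

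Per heavy chain transcript, the light chains were nearly level in the CON group and scarcer in the 4H group. The ratio of summed light chain FPKM to Slc3a2 FPKM was 1.02, 1.03 and 1.03 in the CON libraries and 0.681, 0.756 and 0.681 in the 4H libraries. The log2 ratio to Slc3a2 changed by -0.76 for Slc7a5, by -0.81 for Slc7a11 and by 0.90 for Slc7a6, without overlap between the groups in any of these pairs (exact permutation p = 0.1 each, the smallest possible).

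**Figure D3:**
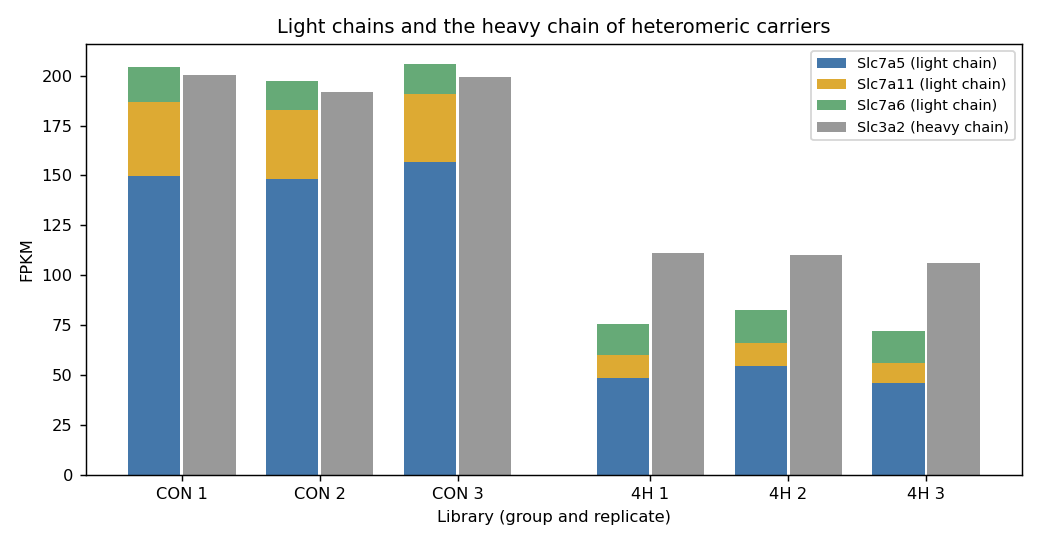
FPKM in each library of the 3 light chains that passed the filter (stacked bars) and of the heavy chain gene Slc3a2 (grey bars). The stacks and the grey bars are about equally high in the CON libraries, and the stacks are lower than the grey bars in the 4H libraries, where the Slc7a6 part is 15.7 to 16.6 FPKM high.

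The order of levels differed between the groups. In the CON group Slc3a2 (197.0 ± 4.56 FPKM) was followed by Slc38a2 (157.4 ± 4.00 FPKM) and Slc7a5 (151.6 ± 4.55 FPKM), the latter pair overlapping between libraries, and then by Slc6a6 (83.4 ± 1.70 FPKM) and Slc38a1 (53.7 ± 1.43 FPKM). In the 4H group Slc38a2 (151.4 ± 5.66 FPKM) stood first, Slc3a2 (109.2 ± 2.68 FPKM) and Slc6a6 (106.2 ± 2.55 FPKM) overlapped behind it, and Slc7a5 (49.6 ± 4.45 FPKM) came after them.

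Of the 9 genes whose substrate is not a standard amino acid or is unsettled, 5 were tested, 2 were higher, 1 was lower and 2 were not called, beside 22.6% higher and 24.1% lower among all genes tested. Slc6a6 encodes the taurine carrier TauT and was at 85.2, 83.1 and 81.8 FPKM in the CON libraries against 105.5, 109.0 and 104.1 FPKM in the 4H libraries. This was a rise to 127.4% of the CON level without overlap (log2 fold change 0.35, SE 0.03, adjusted p = 5.62e-05, limma). Slc7a4, a relative of the CAT carriers without an established substrate, was at 0.459, 0.286 and 0.432 FPKM (CON) and at 0.663, 0.851 and 1.12 FPKM (4H), with a log2 fold change of 0.62 (SE 0.17, adjusted p = 0.0176, limma). Slc7a4 was low and overlaps P2rx6 on the opposite strand, and its call was lost without CON replicate 2 (adjusted p = 0.0579) and without 4H replicate 3 (adjusted p = 0.0580, limma).

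Slc43a3, a purine nucleobase carrier related to the neutral amino acid carriers Slc43a1 and Slc43a2, was at 25.7, 25.4 and 23.9 FPKM in the CON libraries versus 19.2, 18.7 and 19.8 FPKM in the 4H libraries. It was lower without overlap (log2 fold change -0.37, SE 0.05, adjusted p = 0.000351, limma). Slc38a10, whose substrate is unsettled, was at 28.8, 28.1 and 29.6 FPKM (CON) and at 28.0, 28.6 and 27.4 FPKM (4H), with a log2 fold change of -0.04 and an interval of -0.13 to 0.05 (adjusted p = 0.453, limma). Slc38a6 had a log2 fold change of 0.08 and was not called, and 15.8% of its 75-base stretches recur in transcripts of other genes.

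By location, 4 of the carriers work mainly at the lysosome (Slc36a1, Slc38a7, Slc38a9 and Slc66a1). All 4 were tested, Slc38a7 was lower and the other 3 were not called, with a median log2 fold change of 0.10. This share is near the 24.1% of all genes that were lower. Of the 7 sodium-coupled SNAT and ASCT carriers at the cell surface, 4 were tested, Slc1a4, Slc1a5 and Slc38a1 were lower and Slc38a2 was not called, with a median of -0.65. Slc38a3 and Slc38a4 were near 0 and Slc38a5 was at 0.

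Genes that work beside these carriers were counted in the same fit. Of 34 other amino acid and peptide carriers, 17 were tested, 6 were lower and 3 were higher, and the median log2 fold change was -0.13. With 24.1% of all genes tested lower and 22.6% higher, the share of called genes in this list was near that of all genes. The largest differences in this list were those of Slc25a39, the mitochondrial glutathione carrier, with 145.9 ± 3.48 FPKM for CON and 74.7 ± 3.57 FPKM for 4H (-0.96, adjusted p = 8.3e-07, limma), and Slc25a15, the mitochondrial ornithine carrier, with 7.49 ± 0.938 and 4.82 ± 0.124 FPKM (-0.58, adjusted p = 0.00107, limma). The 3 that were higher were Slc6a17, a vesicular carrier of neutral amino acids (0.46), Mfsd12, a lysosomal cysteine importer (0.46), and Sfxn3, a mitochondrial serine carrier (0.19).

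Of 18 genes of the amino acid response, all were tested, 15 were lower, 10 of them differentially expressed, and 0 were higher, and the median log2 fold change was -1.08. Among all genes tested 24.1% were lower, and 1.28% were lower and differentially expressed. Trib3, a pseudokinase induced by ATF4, went from 96.0 ± 2.44 to 20.6 ± 2.62 FPKM (-2.21, adjusted p = 4.9e-07, limma), and Gpt2, the mitochondrial alanine aminotransferase, from 105.1 ± 0.766 to 28.1 ± 1.73 FPKM (-1.88, adjusted p = 7.74e-08, limma). Atf4 itself was at 420.9, 414.6 and 413.7 FPKM in the CON libraries against 197.7, 211.8 and 185.4 FPKM in the 4H libraries (-1.07, adjusted p = 9.06e-07, limma). The 3 that were not called were the kinases Eif2ak4 (0.10) and Eif2ak3 (0.20), which sense uncharged tRNA and unfolded protein, and Vegfa (0.03).

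Of 26 enzymes that use the imported amino acids, 19 were tested, 12 were lower, 1 was higher and the median log2 fold change was -0.35, beside 24.1% lower and 22.6% higher among all genes tested. Cth, which makes cysteine by transsulfuration and so supplies the same pool as cystine import through xCT, went from 68.8 ± 2.71 to 8.69 ± 0.961 FPKM (-2.92, adjusted p = 8.57e-08, limma). Shmt2, the mitochondrial enzyme that turns serine into glycine, went from 305.4 ± 8.16 to 99.9 ± 3.71 FPKM (-1.61, adjusted p = 6.02e-08, limma). The 1 that was higher was Gss, glutathione synthetase, with 23.3 ± 1.41 FPKM for CON and 32.6 ± 0.902 FPKM for 4H (0.48, adjusted p = 0.000151, limma).

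**Figure D4:**
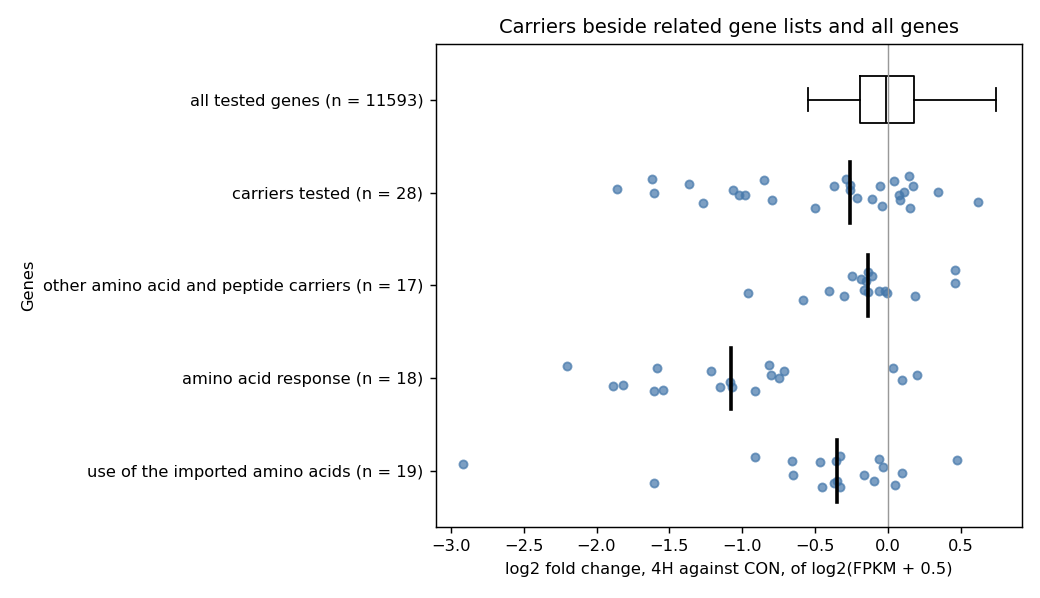
Log2 fold change of 4H against CON for each tested gene of the carriers and of the 3 neighbouring lists (points, with the median as a bar) beside all 11593 tested genes (box from the 25th to the 75th percentile with whiskers to the 5th and 95th and the median inside). The medians are -0.26 for the carriers, -0.13 for other carriers, -1.08 for the amino acid response and -0.35 for the enzymes.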

How the data were processed

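RNA-seq of C2C12 myoblasts was analysed for 3 CON and 3 4H libraries, grouped by the GEO labels. The titles 4H1, 4H3 and 4H4 of the labels are given here as 4H replicates 1, 2 and 3, after the biosample numbers. Libraries were strand-specific and made from poly(A)-selected RNA. The authors deposited 1 table of FPKM values, normalized for transcript length and mapped fragments, with 1 column per library. The submitters' processing notes name the build mm10. For the aligner, counting tool and annotation, none is given in the sources used here. The count model of the study could not be applied to FPKM.

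Coordinates and gene overlaps were taken from GENCODE M21 (GRCm38) by Ensembl identifier, and promoters from RefSeq. The groups were compared by limma 3.58.1 under R 4.3.3 (functions lmFit and eBayes, trend on) on log2(FPKM + 0.5), two-sided, without a replicate block, for all genes averaging 0.5 FPKM or more, with Benjamini-Hochberg adjustment over all of them. Log2 fold changes are on this scale and understate those of low genes. Intervals are 95% intervals from the same fit. Errors are SDs of 3 libraries, and FPKM gives no counting error. The fit was tested on simulated data. Ratios of carriers were compared with exact permutation tests in SciPy 1.17.1. Alternatives were other pseudocounts, filters and scalings, no trend, a replicate block and each library left out in turn.

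The carriers, substrate classes and gene lists were chosen with earlier results of these data known. Values in every library are given for tested carriers called at 0.05 whose log2 fold change was 0.5 or more in size, and for the 3 most abundant tested carriers of each class. Of each other list, the 2 genes with the largest called change are named. Slc36a1, Slc7a7, Slc38a6, Slc6a17, Mfsd12, Sfxn3, Atf4, Eif2ak3, Eif2ak4, Vegfa and Gss fall outside this rule, having been chosen after their values were seen. Python 3.11.15 was used with pandas 2.3.3, numpy 2.4.6 and, for the plots, matplotlib 3.10.9.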

Additional observations from a re-analysis of the deposited data

How the results depend on the processing

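The counts of 13 lower and 7 differentially expressed carriers stayed within 1.5 times under every alternative run (10 to 14 and 5 to 8), with 13 and 7 under the replicate block as well. The biosample numbers did not pair the libraries (correlations of deviations of 0.02, -0.09 and -0.13 for equal numbers). By title, C3 and 4H3 share a number, and these are CON replicate 3 and 4H replicate 2. Their correlation was 0.18, the highest of any CON and 4H pair, and a block by title was not run. The block by biosample number gave 4964 called genes overall in place of 5409 and changed no call of a named carrier. The count of 2 higher carriers became 1 with a filter at a mean of 1 or 5 FPKM, which removed Slc7a4, and 1 with quantile normalization, where its adjusted p was 0.0549 (limma). It was 3 without a filter, where Slc7a7 was added, and ranged from 1 to 2 with each library left out. Of the fold changes of named carriers under the alternatives, 319 kept their direction and their side of the adjusted p threshold, 3 of Slc7a4 lost the call and 2 of Slc7a2 gained it. The other 3 changed sign without being called, namely Slc38a9 (0.08 in the report) with quantile normalization (-0.0149) and without CON replicate 1, and Slc7a6 (0.05 in the report) without CON replicate 2. With each library left out, Slc38a9 ranged from -0.00915 to 0.16 and Slc7a6 from -0.0160 to 0.13.

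The class medians rest on few genes. The median log2 fold change of the neutral carriers, -0.26, was -0.37 with a pseudocount of 0.1 and -0.19 with 1, -0.11 without a filter (17 genes), -0.65 and -0.90 with filters at 1 and 5 FPKM (10 and 8 genes), -0.40 with quantile normalization, and -0.43 (without CON replicate 1) to -0.21 with each library left out. That of the acidic carriers, -1.36, was -1.65 and -1.13 with pseudocounts of 0.1 and 1, -0.68 without a filter (6 genes), -1.49 and -1.62 with filters at 1 and 5 FPKM (2 genes and 1 gene), -1.61 after rescaling to TPM and -1.50 with quantile normalization. That of the cationic carriers, -0.27, was -0.11 when carriers of cationic and neutral amino acids were counted with them (6 genes). Over all genes, 450 were differentially expressed, 703 after rescaling to TPM and 245 with a filter at 5 FPKM. FPKM holds no depth, so the counting error of low carriers is unknown.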
